A study of Mus musculus with 2 samples.

Results

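Cd8a, Cd8b1, Cd4, Cd24a, Sirpa and Cd7 encode surface antigens by which dendritic cells, T cells and NK cells are told apart in the mouse spleen. They were chosen by name and are 6 of the 17751 genes in the count tables. Their transcripts were read in every cell, and 4 of the encoded proteins (CD8A, CD4, CD24 and CD172A, the product of Sirpa) were also read as antibody-derived tags (adt) in the same cells. No tag was assigned for CD8B or CD7. The cells were live CD11c+ MHCII+ splenocytes, sorted after red cell lysis and depletion of T and B cells from female C57BL/6 mice (WT) and female Batf3-/- mice on the C57BL/6 background, both 8 weeks old and without further treatment. The mutant lacks Batf3, a transcription factor needed for type 1 conventional dendritic cells (cDC1), constitutively. The pooled spleens of each genotype gave 1 library, and the experiment was performed once. With 1 library per genotype there is no biological replicate, so no test was made between genotypes and every interval below covers counting error only.

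CD8A forms a homodimer on cDC1 and, with CD8B, a heterodimer on cytotoxic T cells, where it binds MHC class I. CD4 is the coreceptor for MHC class II on helper T cells and is also carried by many splenic cDC2 (type 2 conventional dendritic cells). CD24, the heat stable antigen, is a glycolipid-anchored sialoglycoprotein that is abundant on cDC1 and on immature red cells. CD172A (SIRPα) is an inhibitory receptor of cDC2, monocytes and macrophages that binds CD47 and recruits the phosphatases SHP-1 and SHP-2. CD7 is a small immunoglobulin-family receptor of T cells, NK cells and their precursors. In flow cytometry of the spleen, CD8A and CD24 are the usual marks of cDC1, and CD4 and CD172A those of cDC2.

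The WT library held 12224 cells and 122530055 unique molecular identifiers (UMIs), with a median of 8374.5 per cell. The Batf3-/- library held 12119 cells and 114517073 UMIs, with a median of 8516 per cell. Batf3 itself, measured as a check of the labels, was at 206 UMIs per 1000000 (CPM) in WT and at 2.49 in Batf3-/- cells. Both libraries shared 56 cell barcodes. The 20 clusters are those of the deposited annotation, which numbers them, and their names are the study's. C4, C6 (cycling), C12 (mature), C17 and C18 are cDC1, C0, C5, C7, C8 and C10 are cDC2a, C9 is cDC2 (cDC2a or mixed), and C2 and C11 are cDC2b. C1 is cDC2 with Il4i1, C3 is cDC with Sox4, C13 holds NK cells, ILC and T cells, C14 is plasmacytoid dendritic cells (pDC), C15 monocytes, C16 mixed cells and C19 stem cells. The name of C19 does not match its leading transcripts, since 3 globin genes summed to 207447 CPM in WT and 224704 in Batf3-/- cells. C4, C12, C17 and C18 hold 31, 31, 1 and 2 Batf3-/- cells, so ratios between genotypes were formed in the 18 clusters with at least 20 cells of each library. C9 and C17 were shallow and rich in mitochondrial transcripts. The median cell had 1467 UMIs in WT and 1487 in Batf3-/- C9 and 2348 in WT C17, and its mitochondrial share was 14.9%, 13.8% and 15.05%, against at most 6.90% in any other cluster. The clusters were built from transcripts, so the RNA levels of clusters describe them. The tags took no part in the clustering.

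The tag rows carry no antibody names. Sorting the 11 antibodies by the supplier's tag numbers (TotalSeq-A) puts CD4, CD8A, CD24 and CD172A at rows 1, 2, 8 and 9. The study lists the panel in another order, so that the rows follow this sorting is an assumption. Each of these rows was compared with its gene across all cells. Row 2 correlated with Cd8a at r = 0.71 in WT and 0.49 in Batf3-/- cells, row 8 with Cd24a at 0.64 and 0.47, and row 1 with Cd4 at 0.38 and 0.32. In all 6 cases it was the best of the 11 rows. Row 9 correlated with Sirpa at 0.38 in WT, where it ranked first with row 4 close behind, but at 0.14 in Batf3-/- cells, where 2 other rows were nearer to it. The name CD172A is therefore the least certain of the assignments.

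Cd8a and Cd8b1 are neighbours on chromosome 6 of GRCm38, both on the plus strand. Cd8b1 lies at chr6:71322788-71337494 and Cd8a at chr6:71373427-71379173, with 35933 bases between them. Cd4 lies on the same chromosome at chr6:124864692-124888221 on the minus strand, Cd24a at chr10:43578284-43584265 (plus), Sirpa at chr2:129592835-129632228 (plus) and Cd7 at chr11:121036747-121039418 (minus). Of the 6 genes, Cd8a had an entry in the RefSeq promoter table (GRCm38.p6). Its promoter is shown because Cd8a was the 1 of the 6 past 2-fold between genotypes in C6 at a mean of at least 50 CPM. The 254 bases at chr6:71373177-71373430, plus strand, run from 250 before to 4 after the start. Capitals mark a CAGCTG, an E-box, that begins at position 249 of the window.
Cd8a promoter: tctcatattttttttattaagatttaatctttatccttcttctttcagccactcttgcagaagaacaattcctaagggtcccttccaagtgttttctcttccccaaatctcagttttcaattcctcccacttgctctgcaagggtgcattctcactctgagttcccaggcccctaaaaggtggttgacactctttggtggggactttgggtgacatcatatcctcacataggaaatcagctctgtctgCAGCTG
CAGCTG reads the same on both strands, was chosen after the window had been read, and is present in 13.2% of the 32851 promoters of the table. TGANTCA, the form bound by AP-1 family factors, was searched on both strands, did not occur in the Cd8a window and occurs in 6.88% of all promoters.

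Cd8a transcripts were highest in the cDC1 clusters, but were also high in C3 and C14. In WT the level was 586 CPM in C18, 442 (95% interval 435 to 449) in C4, 408 (398 to 418) in C6, 350.5 in C12, 295 in C3 and 239.8 in C17. It was 172 CPM in the pDC of C14, 124 in C15, 74.9 in C13 and 6.97 in C0, the largest cDC2a cluster. Of the 19 pairs of neighbours in this order, 10 had overlapping intervals, among them C3 with C17 and C17 with C14. C18, C4, C6 and C12 overlapped no neighbour, and C3 did not overlap C12 above it. A WT cell of C4 carried 6.85 Cd8a UMIs on average, one of C6 8.01, one of C12 2.64 and one of C3 2.59.

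**Figure D1:**
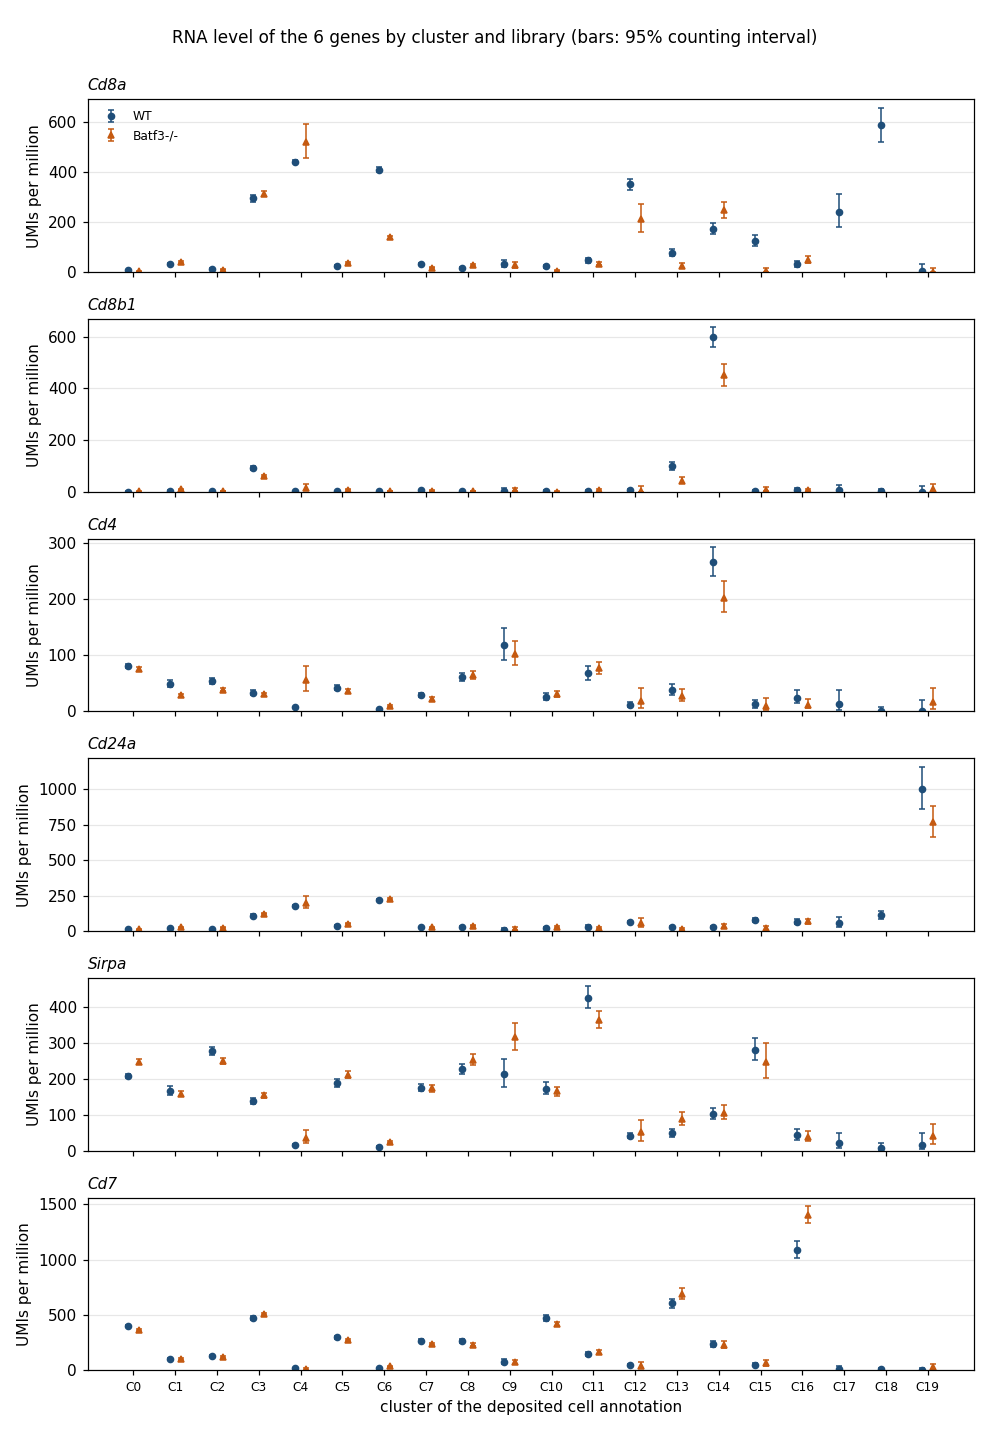
RNA levels of the 6 genes by cluster and library, as UMIs per 1000000 on a linear axis, with exact Poisson 95% intervals. Clusters are shown for a library in which they hold at least 20 cells. Cd8a and Cd24a stand high in C4 and C6, Sirpa and Cd7 are low there, and Cd8b1 stands out in C14, C13 and C3 alone of the clusters with at least 20 cells.

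In Batf3-/- cells Cd8a stayed high in C3 and in the few cells of C4, and was lower in C6. The level in C6 was 408 CPM in WT (6387 UMIs in 797 cells) and 139 CPM (132 to 145) in Batf3-/- cells (1865 UMIs in 727 cells), a log2 ratio of -1.56 (-1.63 to -1.49), or 2.95-fold lower. C3 had 295 CPM in WT against 313 in the mutant, a log2 ratio of 0.08 (0.01 to 0.16). C4 had 442 CPM in WT against 521 in the 31 Batf3-/- cells (0.24, 0.05 to 0.42). C12 had 350.5 and 209.7 CPM (-0.74, -1.15 to -0.36), again with 31 Batf3-/- cells. Cells with a Cd8a UMI made up 85.3% of WT and 50.8% of Batf3-/- cells of C6. With every cell thinned to 1000 UMIs these shares were 28.7% (25.6 to 32.0) and 9.49% (7.46 to 11.9). In the cDC2a of C0 the thinned share was 0.63% (20 of 3175 cells) in WT and 0.17% (5 of 2954 cells) in Batf3-/- cells. The monocytes of C15 had been set as the background for Cd8a, but WT C15 holds cells with the transcript and is no background. Its thinned share was 3.45% in WT and 0 of 52 cells in Batf3-/-. The limit set for a count of 0 is 3 cells, here 5.77%, which lies below the exact upper limit. The thinned share of C3 was 18.2% in WT and 21.2% in Batf3-/- cells.

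Across all 6 genes and 18 clusters, 47 of 108 values had a mean of at least 50 CPM over both libraries, and 3 of the 47 differed at least 2-fold with an interval that left out no difference. These were Cd8a in C6, Cd8a in C15 and Cd8b1 in C13, each lower in Batf3-/- cells, and 0 were higher. Without doublets Sirpa in C13 (2.11) and Cd7 in C15 (1.23) passed 2-fold upward on the log2 scale. Within G1 cells alone Cd8a in C12 and Cd24a in C19 moved past 2-fold downward. Of the 47583 values of all genes that reached this mean in these clusters, 0.765% were at least 2-fold lower and 0.673% at least 2-fold higher. By cluster, 1.93% of the genes were lower in C6, 0.924% in C15 and 0.602% in C13. The median log2 ratio over the genes was 0.01 in C6, 0.02 in C15 and 0.03 in C13. The values under 50 CPM were not judged. In C6 these were Cd8b1, Cd4, Sirpa and Cd7, with log2 ratios of 0.76, 1.25, 1.17 and 0.84. Only the interval of Cd8b1 held 0.

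**Figure D2:**
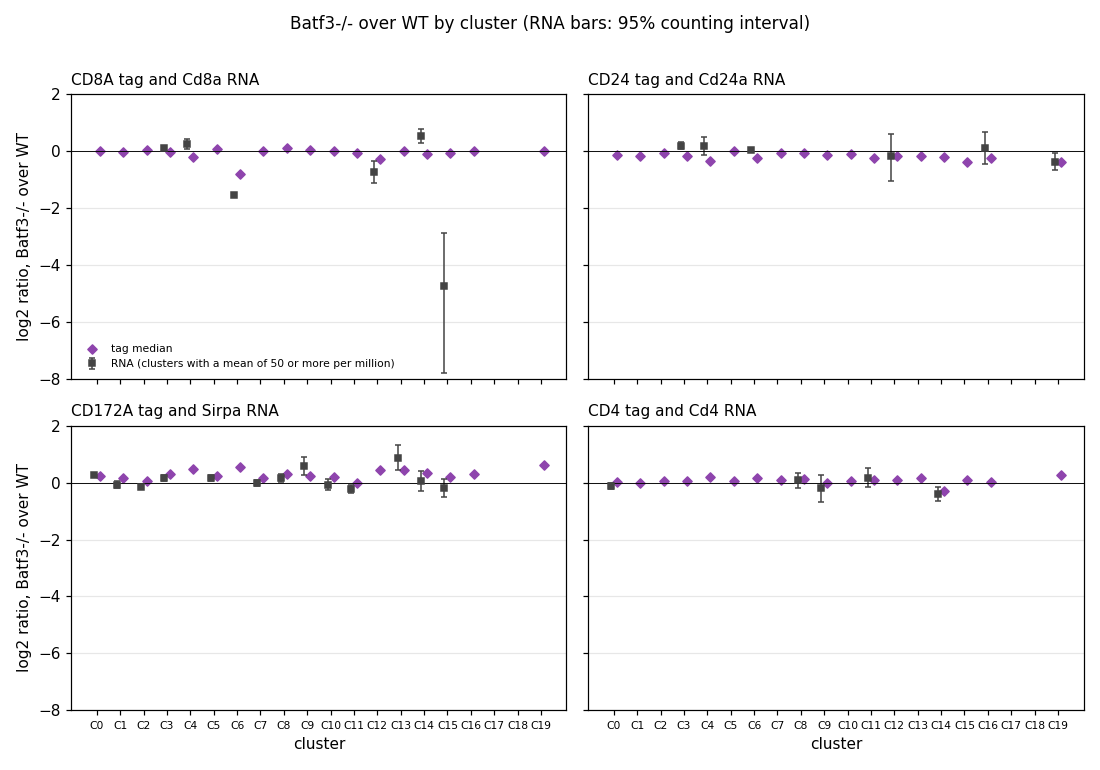
Log2 ratios between genotypes (Batf3-/- over WT) of RNA level and of median tag count, for Cd8a, Cd24a, Sirpa and Cd4 and their antibodies. Clusters have at least 20 cells of each library. RNA ratios are shown where the mean is at least 50 CPM, with exact 95% intervals. Cd8a RNA in C6 and in C15 lies beyond 2-fold, both below 0, and Cd24a RNA in C6 lies at 0.03.

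The lower Cd8a level of C6 came with other marker levels in that cluster. The 5 cDC1 markers Xcr1, Clec9a, Cadm1, Irf8 and Naaa summed to 3588 CPM in WT and 1180 in Batf3-/- cells, none was at 0, and 5 of 5 were at least 2-fold lower. The 5 cDC2 markers (Sirpa, Itgam, Clec4a4, Cd209a and Ltb) summed to 71.3 and 346 CPM, and both that reached 50 CPM, Cd209a and Ltb, were at least 2-fold higher. The study had itself reported Naaa, Xcr1, Cadm1 and Cd8a as lower, Ltb and Cd209a as higher and Cd24a as comparable in these cells. It described comparable results for protein. Its flow cytometry of Batf3-/- cDC1 found CD8A lower, CD24 unchanged and CD172A higher. The Cd8a ratio and the marker counts are therefore a description of the same cells and no independent test. The study calls the Batf3-/- cells of C6 cDC1-like. Among cells in S or G2M phase only (784 WT and 538 Batf3-/- cells) Cd8a was at 411 and 148 CPM. The G1 cells of C6, 13 in WT and 189 in Batf3-/-, had 224 and 100 CPM. The part of these markers in the Cd8a ratio was not tested, and a change within cells and a change of the cells in C6 cannot be told apart here.

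The surface protein of C6 differed in the same direction. The median CD8A tag count of C6 was 80 (quartiles 48 and 132) in WT and 45 (37 and 60) in Batf3-/- cells, with 95% intervals of the median of 73 to 85 and of 43 to 46. The median of C0 was 41 in both libraries and serves as background. The log2 ratio of the medians was -0.83 as counted and -3.29 after this background was taken off, so whether the tag differed by more or by less than the RNA depends on it. Cells above the 95th percentile of C0 of their own library (64 tags in WT, 60 in Batf3-/- cells) made up 59.7% (56.2 to 63.2) of C6 in WT and 24.6% (21.5 to 27.9) in Batf3-/- cells. In C4 they made up 81.9% and 83.9%, in C12 84.0% and 80.6%, in C3 40.3% and 41.5%, and in C14 40.9% and 38.6%. Of these clusters C6 was the 1 whose intervals did not overlap between libraries.

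Outside C6 the CD8A medians differed by at most 4 counts between libraries, except in C4 and C12, where they were lower in Batf3-/- cells. C4 had medians of 122 (79 to 165 between quartiles) in WT and 106 (77.5 to 149.5) in Batf3-/- cells, and C12 had 97 and 79. C3 had 57 and 55, C14 55 and 51, C15 47 and 45, and C13 40 in both. Over 18 clusters the difference of medians (Batf3-/- minus WT) ran from -35, in C6, to 3, with 9 clusters lower, 4 higher and 5 equal. As a share of all tags of the cell the CD8A median was lower in C6 alone, at 126 per 1000 tags in WT and 87.2 in Batf3-/- cells, and higher in the other 17 clusters, such as C4 (181 and 191) and C3 (108 and 116). The WT cells of C17 and C18 had medians of 98.5 and 90.

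**Figure D3:**
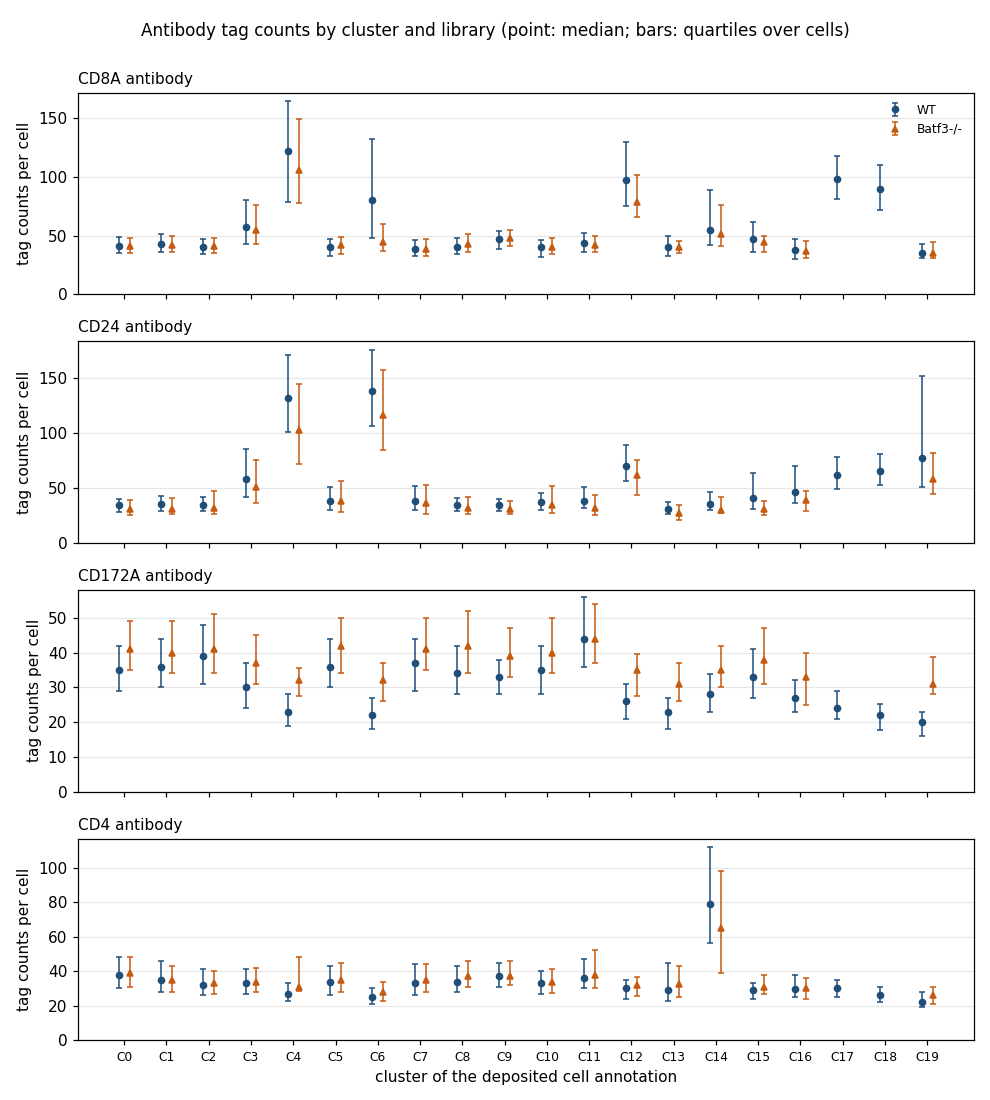
Tag counts per cell for the CD8A, CD24, CD172A and CD4 antibodies by cluster, as the median (point) and quartiles (bars) over the cells of each library. C4, C12, C17 and C18 are high for CD8A, C6 is high in WT only, CD24 stands at 138 and 116 in C6, and CD172A is higher in Batf3-/- cells in 17 of 18 clusters.

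The monocytes of C15 held Cd8a transcripts almost only in WT. The WT cells carried 142 UMIs (124 CPM) in 30 of 145 cells and the Batf3-/- cells 2 UMIs (4.59 CPM) in 52 cells, a log2 ratio of -4.76 (-7.81 to -2.88). In the 30 WT cells the CD8A tag had a median of 94, against 45 in the 115 without a Cd8a UMI. The same 30 cells also had more UMIs in all, with a median of 11427.5 against 5681. Markers of cDC1 moved with it: they summed to 1324 CPM in WT and 376 in Batf3-/- cells, none at 0, and 4 of 4 that reached 50 CPM (Clec9a, Irf8, Naaa and Xcr1) were at least 2-fold lower. The 10 WT cells that the deposited SingleR labels call DC held Cd8a at 341 CPM and a CD8A tag median of 149, and the 129 called monocytes held 87.8 CPM and a median of 47. Without the cells called as doublets the WT level was 119 CPM for Cd8a and 126 for Xcr1. The part of these cells in the result beyond those values was not tested.

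Cd8b1 followed a different pattern from Cd8a, its partner in the heterodimer. It was highest in pDC, at 598 CPM (560 to 637) in WT and 451 (411 to 493) in Batf3-/- cells of C14. C13 had 98.8 and 42.5 CPM and C3 91.0 and 61.0, and the levels of C13 and C3 overlapped in WT. In the cDC1 cluster C4 the WT level was 2.22 CPM, with 76 UMIs in 2202 cells, and in C6 it was 1.41 in WT and 2.38 in Batf3-/- cells. Every other cluster with at least 20 cells was below 13 CPM.

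Cells with both subunits were more frequent in C3, C13 and C14 than in C4, C6 and C12 of WT. Of the cells with a Cd8a UMI, 26.9% in C3 also had a Cd8b1 UMI in WT and 24.7% in Batf3-/- cells. The share was 71.6% and 63.5% in C14 and 72.7% and 61.5% in C13, but 2.27% in WT C4, 2.5% in WT C6 and 4.59% in WT C12. Among Batf3-/- cells it was 5.15% (3.13 to 7.92) in C6, 0 of 12 cells in C12 (an exact interval of up to 26.5%) and 2 of 26 cells in C4 (7.69%, 0.95 to 25.1), and the last interval overlaps that of Batf3-/- C3 (21.7 to 27.9). The clusters differ in depth, and with every cell thinned to 2000 UMIs the shares were 17.8% (12.7 to 24.0) and 15.1% (12.0 to 18.7) in C3, 43.75% (26.4 to 62.3) and 12 of 30 cells in C14, 14 of 20 and 4 of 7 cells in C13, 5 of 1165 cells in WT C4 and 1 of 381 in WT C6. In the other direction, 83 of the 93 WT cells of C3 with Cd8b1 also had Cd8a (89.2%, 81.1 to 94.7), as had 194 of 206 Batf3-/- cells (94.2%, 90.0 to 96.95). Between genotypes Cd8b1 in C3 had a log2 ratio of -0.58 (-0.73 to -0.42) while Cd8a there had 0.08, and in C14 the ratios were -0.41 (-0.57 to -0.25) for Cd8b1 and 0.52 (0.26 to 0.77) for Cd8a. The Cd8b1 UMIs per Cd8a UMI went from 3.47 in WT to 1.83 in Batf3-/- cells of C14 and from 0.309 to 0.195 in C3.

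In C13 Cd8b1 had a log2 ratio of -1.22 (-1.71 to -0.74) between genotypes, and most of its UMIs were in cells labelled T cells. These cells, labelled by SingleR, were 56 of 241 (23.2%, 18.1 to 29.1) in WT and 19 of 146 (13.01%, 8.02 to 19.6) in Batf3-/- cells. They held 128 of 153 WT and 34 of 49 Batf3-/- UMIs of Cd8b1. Within them Cd8b1 stood at 533 CPM in WT against 448 in the mutant, a log2 ratio of -0.25 (-0.84 to 0.30), and Cd8a was at 233 and 211. Of the 6 T cell markers 3 are in the tables (Cd3e, Cd3d and Cd3g), and 0 of the 3 passed 2-fold in C13, with a median log2 ratio of -0.65. The part of the T cell share in the Cd8b1 ratio was not tested.

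Cd24a RNA was at nearly the same level in both genotypes in C6, where Cd8a differed. C6 had 219 CPM (212 to 227) in WT against 224 (216 to 232) in the mutant, a log2 ratio of 0.03 (-0.04 to 0.10). C4 had 177 and 199.7 CPM, C3 108 and 122, and C12 61.7 and 54.2. The highest level of all was in the globin-rich cells of C19, at 1001 CPM in WT and 767 in Batf3-/- cells, with up to 52 UMIs in a cell. C0 was at 10.5 and 11.1 CPM. In WT the levels of C19, C6 and C4 did not overlap each other, and those of C18 and C3 did. Cells with both Cd8a and Cd24a UMIs made up 81.4% of C6 in WT and 48.0% in Batf3-/- cells, and 16.6% (14.05 to 19.3) and 6.46% (4.79 to 8.50) with every cell thinned to 2000 UMIs. Those with a Cd24a UMI after thinning to 1000 UMIs were 18.1% (15.5 to 20.9) and 18.98% (16.2 to 22.03), against 1.24% and 0 of 146 cells in C13. The limit set for a count of 0 is 3 cells, here 2.05%, which lies below the exact upper limit.

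The CD24 tag was highest in C6, with a median of 138 (quartiles 106 and 175) in WT and 116 (84 and 157) in Batf3-/- cells. C4 had 131 and 102, C19 77 and 58, C12 70 and 62, C3 58 and 51, and C0 34 and 31. Batf3-/- cells had the lower median in 17 of 18 clusters and the same in 1, by up to 29 counts and by 4.5 in the median cluster. The total of all 11 tags per cell was also lower, with medians of 646 and 537 in C6, 694 and 599 in C4, and 508 and 465 in C0. As a share of all tags of the cell, the CD24 median was lower in Batf3-/- cells in 9 clusters and higher in 9, and C6 had a log2 ratio of 0.0455, against -0.25 for the counts. Whether the CD24 difference exceeds that of the totals was not tested.

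Cells that were high for both CD8A and CD24 were fewer in Batf3-/- C6, C12 and C3, by CD24 limits that differ between libraries. Cells above the 95th percentile of C0 for both tags made up 58.2% (54.7 to 61.7) of C6 in WT and 23.1% (20.1 to 26.3) in Batf3-/- cells. For CD24 alone they made up 95.4% and 85.0%, with limits that differ by library (59 tags in WT, 68 in Batf3-/- cells), so the higher limit lowers the Batf3-/- shares. In C12 the share for both was 65.5% (60.6 to 70.2) in WT and 35.5% (19.2 to 54.6) in the 31 Batf3-/- cells, and in C4 80.2% (78.5 to 81.9) and 67.7% (48.6 to 83.3). In C3 it was 27.7% (24.4 to 31.2) and 18.7% (16.8 to 20.7).

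Sirpa was highest in cDC2 and monocytes and low in cDC1. C11 had 426 CPM in WT against 364 in the mutant. The values were 276 and 249 in C2, 281 and 248 in C15, 207 and 247 in C0, and 213 and 316 in C9. C3 had 137.5 and 153 CPM and C14 102 and 106. The cDC1 of C4 had 16.4 CPM in WT and those of C6 10.7. In WT C11 did not overlap the next cluster, whereas C15 and C2 overlapped, as did C8, C9 and C0. Between genotypes 13 clusters reached 50 CPM and 0 passed 2-fold. C13 came closest, at 47.8 and 87.7 CPM (log2 ratio 0.88, 0.43 to 1.33), and passed 2-fold without doublets, at 2.11 (1.40 to 2.89). The cells of C13 labelled DC held 57 of its 74 Sirpa UMIs in WT and 68 of 101 in Batf3-/- cells and were 18.7% and 23.3% of its cells, and the cDC2 gene Cd209a was at 57.5 and 156 CPM in C13. Their part in the Sirpa ratio was not tested. In C6 Sirpa was at 10.7 and 24.2 CPM, and after thinning 0.75% of WT and 3.99% of Batf3-/- cells had a UMI, against 1.68% in WT C4 and 4.56% and 7.53% in C13. C13 had been set as the background for Sirpa but holds cells with the transcript, so no background is settled for the values of C6.

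The CD172A tag moved between libraries in nearly every cluster, whether Sirpa was high or low there. Its median in WT was 44 in C11, 39 in C2, 35 in C0, 30 in C3 and 22 or 23 in C6, C4 and C13. In Batf3-/- cells it was 44, 41, 41, 37, and 32, 32 and 31. The Batf3-/- median was the higher one in 17 of 18 clusters and equal in C11, by 6 counts in the median cluster and by 11 in C19, where WT cells had 3 Sirpa UMIs in all. After the median of C4 in the same library was taken off, C0 stood 12 counts above it in WT and 9 in Batf3-/- cells, and C11 21 and 12. The cause of the shift was not tested. A few Batf3-/- cells also held extreme counts: 30 cells with over 1000 CD172A tags (a limit chosen after the values were seen) carried 78.8% of all CD172A tags of that library, against 1 such cell in WT, and the highest held 248923. For CD4 there were 2 such Batf3-/- cells with 45.1% of the tags and for CD24 1 cell with 23.6%, while CD8A had 0. Medians are given for this reason.

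Cd4 was highest in pDC, not in cDC2. C14 had 266 CPM (241 to 293) in WT and 202 (176 to 232) in Batf3-/- cells, a log2 ratio of -0.39 (-0.64 to -0.15). Among cDC2, C9 had 118 and 102 CPM, C0 81.2 and 75.01, C11 68.1 and 76.6, C8 60.8 and 64.1, and C2 54.3 and 38.7. In WT C14 stood apart and C9 was above C0 without overlap, while C0, C11, C8 and C2 each overlapped their neighbour. C9 is the shallow, mitochondria-rich cluster, and after thinning to 1000 UMIs its share of cells with a Cd4 UMI was 7.80% in WT and 8.18% in Batf3-/- cells, against 8.09% and 7.38% in C0. WT cDC1 were at 7.38 CPM in C4 and 3.64 in C6. The 31 Batf3-/- cells of C4 held 26 UMIs, 55.2 CPM (36.1 to 81.0). Lineage markers moved with it. The cDC2 markers of C4 summed to 108 CPM in WT against 385 in the mutant, with Clec4a4 at 0 there and both that reached 50 CPM (Cd209a and Ltb) at least 2-fold higher. The cDC1 markers summed to 4162 and 2223 CPM, with none at 0 and 2 of 5 (Cadm1 and Naaa) at least 2-fold lower. Of all genes that reached 50 CPM in C4, 1.86% were at least 2-fold lower and 2.11% at least 2-fold higher. The study had itself reported Naaa as lower and Cd209a and Ltb as higher in C4. The part of these markers in the Cd4 level was not tested. Cells with both Cd8b1 and Cd4 UMIs made up 58.4% of WT and 47.5% of Batf3-/- pDC, and 19.1% (13.2 to 26.2) and 18.8% (11.7 to 27.8) after thinning to 2000 UMIs.

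The CD4 tag gave the same leading cluster. C14 had a median of 79 (quartiles 56.2 and 112) in WT and 65 (39 and 98) in Batf3-/- cells, and was the 1 cluster of 18 in which the median was lower in Batf3-/- cells. C0 had 38 and 39, C9 37 in both, C11 36 and 38, C4 27 and 31, and C6 25 and 28. The median was higher in Batf3-/- cells in 15 clusters, by at most 4.5 counts. In C13 the 42 WT cells with a Cd4 UMI had a median of 53, against 27 in the 199 others.

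Cd7 RNA was highest in C16, at 1089 CPM in WT and 1407 in Batf3-/- cells, followed by C13 with 605 and 692. Among dendritic cells, C3 had 476 and 509 CPM, C10 469 and 418.5, C0 400.0 and 367, and C14 236 and 230. The cDC1 of C4 and C6 were at 20.1 and 20.3 CPM in WT. C3 and C10 overlapped in WT, and C16, C13 and C3 did not overlap each other, nor C10, C0 and C5. In 14 clusters the mean reached 50 CPM, and 0 of the 14 passed 2-fold between genotypes. Without doublets C15 did, at a log2 ratio of 1.23 (0.40 to 2.06), against 0.27 with them. Within C13 the level differed by label: cells called ILC held 1499 CPM in WT and 1516 in Batf3-/- cells, those called NK cells 740 and 476, and those called T cells 45.8 and 39.6. The few cells called Tgd (gamma delta T cells), 13 in WT and 6 in Batf3-/-, held 1270 and 1305 CPM. Those called DC held 389 and 386, and those called NKT 20.6 and 45.3.

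C3, the Sox4 cluster, held the antigens of several lineages at once. It was the 1 cDC cluster with Cd8a, Cd24a, Sirpa, Cd7 and Cd8b1 each above 50 CPM in both libraries, and it held 704 WT and 1541 Batf3-/- cells. Cd4 was at 33.4 CPM in WT and 30.0 in Batf3-/- cells of C3. The pDC of C14 had Cd8a, Cd8b1, Cd4, Sirpa and Cd7 above 50 CPM in both libraries. Cells of C3 with UMIs of both Cd8a and Sirpa made up 23.7% in WT and 32.2% in Batf3-/- cells, against 12.1% in WT C4 and 11.0% and 12.2% in C6. The pDC of C14 had 29.9% (22.8 to 37.8) and 29.7% (21.0 to 39.6), and the share was 16.6% in WT C15 and 13.3% in WT C11. The median cell had 8589.5 UMIs in WT C3, 15398.5 in WT C4 and 19599 in WT C6, so these shares are not on 1 scale. With every cell thinned to 2000 UMIs they were 4.26% (2.89 to 6.03) and 4.93% (3.91 to 6.13) in C3, 1.23% (0.81 to 1.78) in WT C4 and 0.50% (0.14 to 1.28) and 0.41% (0.09 to 1.20) in C6. They were then 5 of 152 and 6 of 101 cells in C14, and 3 cells each in WT C15 and WT C11. Cells with both Cd8a and Cd24a made up 27.6% and 33.3% of C3, and 7.10% and 7.46% after thinning. At the surface, cells above both tag limits for CD8A and CD172A (the latter the 95th percentile of C6) were 7.24% (5.44 to 9.42) in WT and 7.07% (5.84 to 8.47) in Batf3-/- cells, against 6.68% (5.67 to 7.80) in WT C4. The share was 10.3% (5.91 to 16.5) in WT C15, 10.1% (6.20 to 15.3) in WT C11, 8.12% (5.62 to 11.3) in WT C12, and 6.49% and 7.92% in C14. All of these intervals overlap that of C3 in the same library. The limits were themselves set on C0 (CD8A) and C6 (CD172A). In WT C6 4.27% passed the CD172A limit and in WT C0 4.69% the CD8A limit. No larger share of C6 and C0 can have passed both, which follows from how the limits were set. Shares above both limits are not given for the remaining clusters.

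Tags spanned a smaller range than transcripts in these pairs of clusters. RNA folds here are of CPM unless stated, and tag folds are of counts per cell. In WT, Cd8a RNA was 63.4-fold higher in C4 than in C0 and the CD8A tag 2.98-fold. For Cd24a, C6 was 20.9-fold above C0 by RNA and 4.06-fold by tag, and C19 95.3-fold and 2.26-fold. Sirpa in C11 against C4 differed 26.0-fold by RNA and 1.91-fold by tag, and Cd4 in C14 against C4 36.1-fold and 2.93-fold. The tag ratios include background tags, such as the 23 CD172A tags of C4 against 44 in C11. By UMIs per cell, the unit nearer to that of the tags, the WT folds were 143 for Cd8a, 59.6 (C6) and 84.6 (C19) for Cd24a, 16.0 for Sirpa and 23.5 for Cd4. The Batf3-/- folds by UMIs per cell were 488 for Cd8a, 50.7 for Cd24a in C6, 6.77 for Sirpa and 2.49 for Cd4. In Batf3-/- cells the same pairs differed less for Cd4 (3.66-fold by RNA and 2.10-fold by tag) and Sirpa (10.1-fold and 1.38-fold), and stood at 237-fold and 2.59-fold for Cd8a, with C4 resting on 31 cells, whose cDC2 markers were higher and cDC1 markers lower than in WT. Cd24a in C6 against C0 was at 20.2-fold and 3.74-fold. In Batf3-/- C6 the RNA of Cd8a was 63.1-fold above C0 of that library while the tag was 1.10-fold above it. The Cd8a level of C0 was 6.97 CPM (152 UMIs) in WT and 2.19 CPM (48 UMIs) in Batf3-/- cells. The Cd8a ratios to C0 therefore rest on a low level that was itself lower in Batf3-/- cells.

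**Figure D4:**
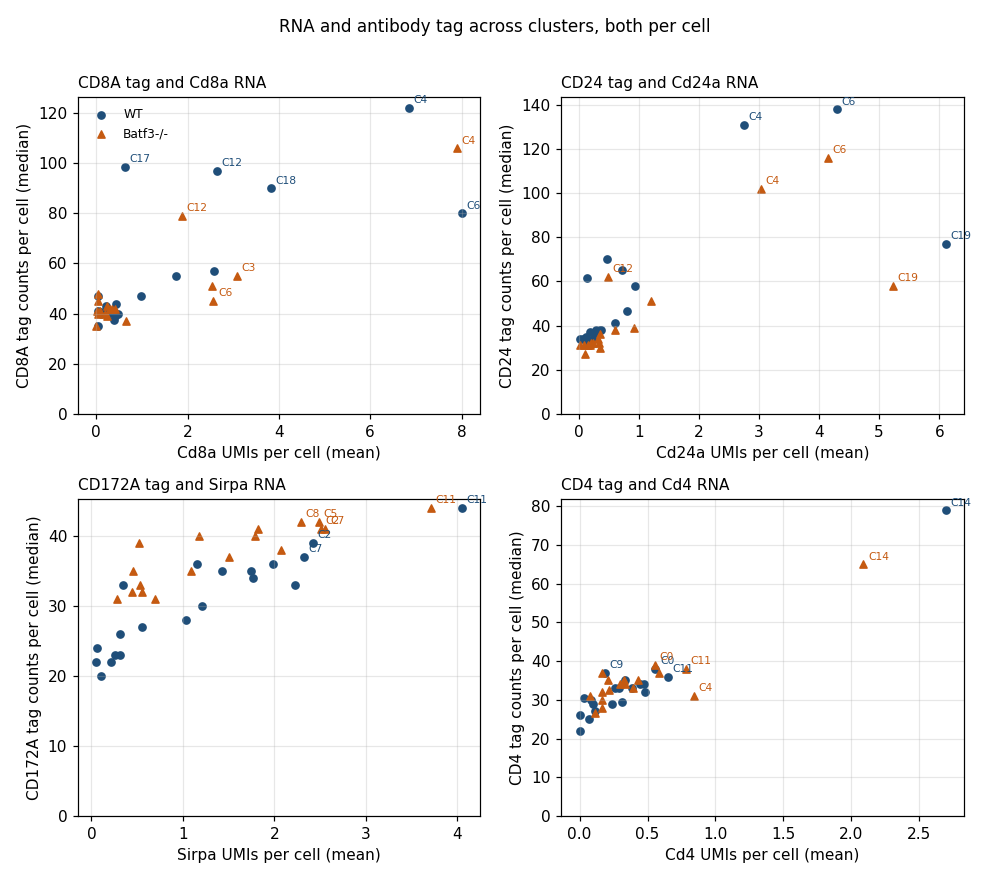
RNA level (mean UMIs per cell, linear axis) against median tag count by cluster and library, 1 panel for each of the 4 antibodies. Clusters are shown for a library in which they hold at least 20 cells. In WT the CD8A median is 122 in C4 and 41 in C0, C19 has the highest Cd24a RNA but a CD24 median of 77 against 138 in C6, and CD4 has 1 high cluster, C14. The CD172A median is higher in Batf3-/- than in WT cells in 17 of 18 clusters and equal in C11.

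Within clusters, cells with a UMI of the gene had more of the tag. The median CD8A tag was higher in cells with a Cd8a UMI in each of 16 WT and 10 Batf3-/- clusters that could be compared, and the same held for CD24 (17 and 12 clusters) and CD4 (15 and 13). For CD172A it held in 16 WT clusters and in 13 of 14 Batf3-/- clusters, with 1 equal. In WT C4 the CD8A median was 129 with and 47 without a UMI. Cells with a UMI were also deeper, with medians of 15812 and 12067 UMIs in all.

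The rank correlation of Cd8a RNA and CD8A tag over cells was 0.70 in WT C6, 0.60 in WT C3 and 0.47 in WT C4, and 0.40 and 0.62 in Batf3-/- C6 and C3. It was 0.03 in WT C0, where Cd8a was near absent. The median over clusters was 0.27 in WT and 0.21 in Batf3-/- cells for CD8A, 0.23 and 0.31 for CD24, 0.14 and 0.16 for CD172A, and 0.32 and 0.33 for CD4. All values were above 0 in the 16 WT and 13 Batf3-/- clusters with at least 100 cells. With the tag as a share of all tags, CD8A in Batf3-/- C10 (-0.025) and C0 (-4.65e-05) and CD172A in Batf3-/- C9 (-0.013) fell below 0. The cells of a cluster share a library and differ in depth, so these are descriptions. The total UMIs of a cell correlated with its total tags at 0.33 in WT C6 and WT C4, 0.27 in WT C3 and 0.30 in WT C0. Cd24a and the CD24 tag in WT C6 were at 0.12.

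The CD8A tag rose with the number of Cd8a UMIs, in bins chosen after the values were seen. In WT C3 the medians were 47, 58.5, 69, 76 and 106 for 0, 1, 2 to 3, 4 to 7 and 8 or more UMIs, and in Batf3-/- C3 46, 56, 63, 72 and 100. In WT C6 they were 39, 45, 53.5, 73 and 126.5, and in Batf3-/- C6 41, 43, 47, 55 and 85. At 4 to 7 UMIs the quartiles of C6 were 56 and 108 in WT and 42 and 74.75 in Batf3-/- cells, with similar depth (medians of 19366.5 and 20704.5 UMIs). From 1 UMI up, the median of C6 was lower in the Batf3-/- library in every bin, and that of C3 was lower by 2.5 to 6 counts. All tags together were lower too, with medians of 636.5 and 550.5 in the bin of 4 to 7 UMIs of C6.

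In C12 and C17 the CD8A tag was also high in cells without a Cd8a UMI. The 198 WT cells of C12 with no Cd8a UMI had a CD8A median of 85.5 (66 to 105 between quartiles), and the 196 with a UMI had 112. The cells without a UMI had a median of 4669.5 UMIs in all and the others 8942.5, so an absent UMI says less in them. In WT C17, the shallow cDC1 cluster, the 58 cells without a UMI had a median of 92.5 and the 32 with a UMI 102, at medians of 2080.5 and 2700.5 UMIs in all. In C4 and C6 cells without a Cd8a UMI had 47 and 39, near the 41 of C0. For CD24 the cells without a UMI stayed high in C4 (103.5 against 135) and in C6 (108 against 140 in WT, 97 against 119 in Batf3-/- cells).

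**Figure D5:**
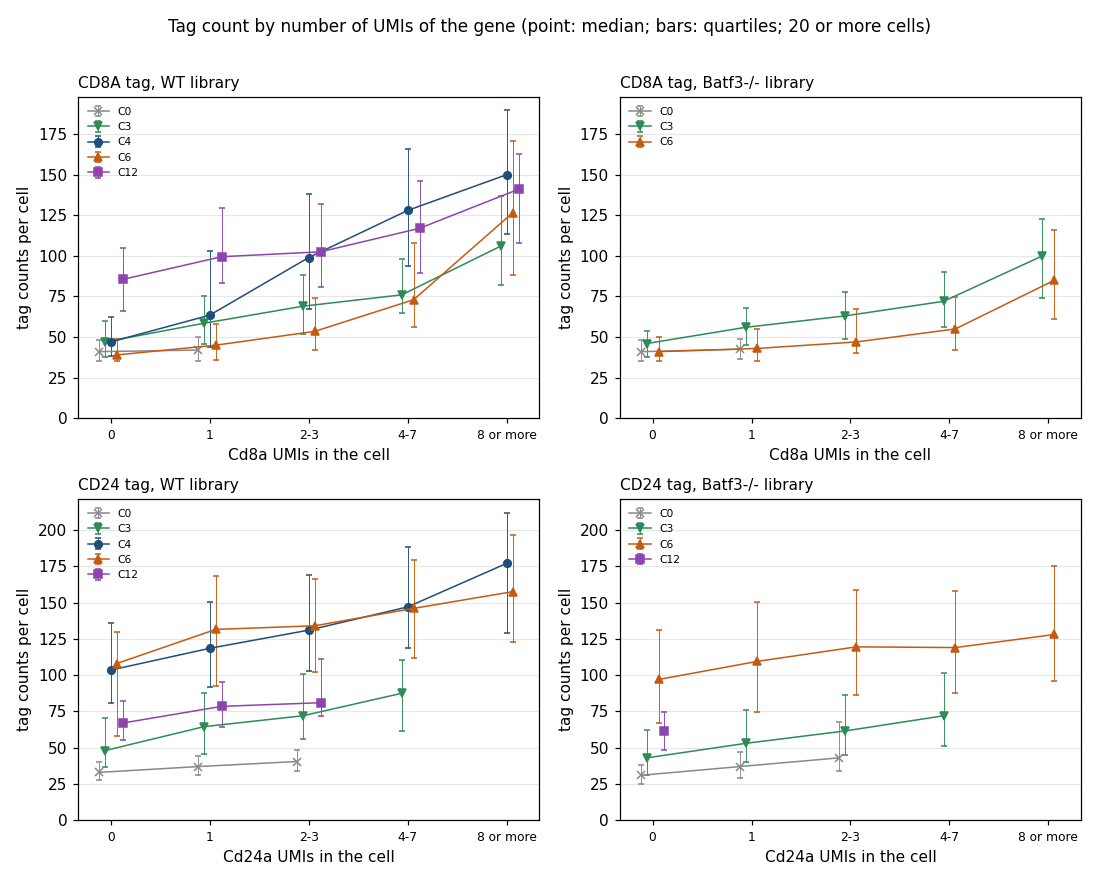
Median CD8A and CD24 tag counts (with quartiles) of cells binned by their UMIs of Cd8a and Cd24a, by cluster and library. The CD8A tag of C6 reaches 126.5 in WT and 85 in Batf3-/- cells at 8 or more UMIs, and in C3 106 and 100.

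Partners and regulators of these antigens were read in C6, where Cd8a differed. Of 12 ligands and signalling partners 8 reached 50 CPM, with a median log2 ratio of -0.17. Ptpn6, which encodes the phosphatase SHP-1 recruited by CD172A, was the 1 past 2-fold (1.66% of all genes were higher in C6), at 122 CPM in WT and 266 in Batf3-/- cells (1.13, 1.05 to 1.21). Cd47, the ligand of CD172A, was at 359 and 406 CPM there and had its highest level in pDC, at 1010 and 1095. The MHC genes were the most abundant of the list: H2-Ab1 reached 13683 CPM and H2-Aa 12651 in WT C2, and B2m 4841 and H2-K1 4686 in Batf3-/- C12.

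Of 15 transcription factors of CD4 and CD8 expression or of cDC identity 7 reached 50 CPM in C6, with a median log2 ratio of -0.00. Batf3, the deleted gene, was lower by design. Irf8, the factor it sustains in cDC1, was at least 2-fold lower, at 1895 CPM in WT and 941 in Batf3-/- cells (-1.01). Of all genes that reached 50 CPM in C6, 1.93% were at least 2-fold lower. Runx3, which acts on Cd8a in T cells, was at 57.9 and 66.2 CPM, Runx1 at 60.9 and 74.2, and their partner Cbfb at 85.3 in both. The highest levels of the list were those of Irf8 in Batf3-/- C14 (2996 CPM), Id2 in WT C12 (2158), Relb in Batf3-/- C1 (1015) and Runx3 in WT C16 (489.6).

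Of 15 other cDC surface antigens 6 reached 50 CPM in C6, with a median log2 ratio of -0.93. Xcr1, a chemokine receptor of cDC1, was at 397 CPM in WT and 45.7 in Batf3-/- cells (-3.12), Clec9a, a receptor for dead cells, at 203 and 82.1 (-1.31), and Cadm1, an adhesion molecule, at 151 and 12.3 (-3.62). Cd209a, a lectin of cDC2, was at 14.9 and 139 CPM (3.23), the 1 higher. Over all genes that reached 50 CPM in C6, 1.93% were at least 2-fold lower and 1.66% at least 2-fold higher. The highest levels were those of Siglech in Batf3-/- C14 (2148 CPM), Clec9a in WT C17 (737), Cd209a in WT C2 (669) and Cd9 in WT C10 (559). Of the relatives, 7 of 10 are in the tables and 0 reached 50 CPM in C6. Their highest levels were those of Cd8b1 in WT C14, Cd3d (429 CPM) and Cd3g (399.6) in WT C13 and Sirpb1c (156) in Batf3-/- C15. Sirpa and the Sirpb1 genes are near copies of each other, as are Cd24a and its pseudogenes, and how reads were divided between such copies is not given in the sources used here.

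The genes most like each member were found over 29 cluster and library profiles with at least 100 cells, by Pearson r of log2(CPM + 1) among 5446 genes. Cd8a was followed by Vkorc1l1 (0.82), Clec9a (0.82) and Pdia5 (0.77), and Cd24a by Cd8a itself (0.77), Gtf2e2 (0.76) and Btla (0.74). Cd8b1 was followed by Tcf12 (0.89), Atp1b1 (0.88) and Auh (0.88). Cd4 was nearest to Irf2bp2 (0.91), Gm5547 (0.89) and Cd72 (0.86), Sirpa to Abi3 (0.92), Sirpb1b (0.90) and Fgr (0.89), and Cd7 to Klrd1 (0.93), Ltb (0.89) and Prkacb (0.88). Between members r was 0.77 for Cd8a with Cd24a, 0.63 for Cd4 with Sirpa, -0.63 for Cd8a with Sirpa, -0.67 for Cd24a with Sirpa, -0.68 for Cd4 with Cd24a and 0.55 for Cd8a with Cd8b1. The profiles share libraries and were clustered on these transcripts.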

How the data were processed

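Transcripts and antibody-derived tags of sorted CD11c+ MHCII+ spleen cells were measured in 1 WT and 1 Batf3-/- library. Per the labels and methods, the authors ran bcl2fastq 2.2.0, Cell Ranger on GRCm38 (mm10) with depth evened between libraries, and Seurat 3.0.5, in which cells were filtered on genes detected and on mitochondrial and ribosomal shares. Tables were deposited as raw counts (UMIs per gene or antibody and cell) and as normalized natural log values. The raw counts were used for all levels. The normalized values that entered 1 alternative were computed from these raw counts. Clusters, SingleR labels and phases are deposited labels. No column was left unmapped.

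Levels are summed UMIs per 1000000 with exact Poisson intervals, and ratios have exact binomial intervals. Shares have Clopper-Pearson intervals, but a thinned share of 0 cells for 1 gene is given with a set limit of 3 cells. Shares of cells with a UMI of 1 gene were also taken after each cell was thinned to 1000 UMIs (28 WT and 42 Batf3-/- cells were shallower and left out), and shares for a pair of genes after thinning to 2000 UMIs (461 and 508 left out). Tag and label shares use every cell. Medians of tags have order-statistic intervals. All intervals are at 95% and cover counting error only, not the spread between mice or libraries. Software was Python 3.11.15 with scanpy 1.11.5, scipy 1.17.1, numpy 2.4.6, matplotlib 3.10.9 and pandas 2.3.3. Doublets were called with Scrublet at an expected rate of 0.1 (541 WT and 244 Batf3-/- cells) and left out only in an alternative. A gene was called in a cluster when its mean was at least 50 CPM, its ratio at least 2-fold and its interval without 0. Intervals and calls were tested on simulated data.

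The genes, gene lists and marker lists were chosen with earlier results of these data known, and the tag limits, UMI bins and the E-box after values were seen. Named genes are the 6 antigens, the 3 genes most like each, and of each list the 4 highest and those past 2-fold in C6. Alternatives were other totals, means over cells, no doublets, 1 phase class, tag shares, tag means, background taken off, other thinning, Pearson or Spearman correlation and normalized values.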

Additional observations from a re-analysis of the deposited data

How the results depend on the processing

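No paired analysis was possible because each genotype is 1 library, and no library could be left out. Of 51 RNA ratios, 51 moved by less than their counting interval with means over cells or without mitochondrial and ribosomal genes, 44 of 51 without doublets and 44 of 49 within 1 phase class. C7 held no G1 cells and gave no value there, and tags at or under background gave none with background taken off. Cd8a in C6 kept its direction, at -1.47 in S and G2M cells. Sirpa in C13 moved past 2-fold, to 2.11 without doublets and 1.06 as a mean over cells, Cd7 in C15 to 1.23 without doublets, and Cd8a in C12 to -1.13 and Cd24a in C19 to -1.37 in G1 cells. Genes under 50 CPM in C6 moved more: Cd4 to 1.97 without doublets and 0.73 in 1 phase class, Sirpa to 1.95 and Cd7 to 1.35 without doublets. All 72 tag ratios stayed within their intervals without doublets. A tag ratio was counted as reversed only where its own interval had left out 0, so small ratios that changed sign are not listed. As a share of all tags, the C6 log2 ratios were -0.53 for CD8A, 0.45 for CD4, 0.79 for CD172A and 0.0455 for CD24, the last reversed, as was CD24 in C0 (0.0236), C1 (0.0197) and C2 (0.0243). With background taken off, CD8A in C6 was -3.29 and 11 such ratios reversed: CD4 in C8 (-0.22) and CD172A in C0 (-0.42), C1 (-0.70), C3 (-0.49), C5 (-0.38), C7 (-0.64), C8 (-0.14), C9 (-0.51), C10 (-0.58), C14 (-0.74) and C16 (-2.00). That CD172A background is the median of 31 Batf3-/- cells of C4. With means, CD24 in C2 was 2.10, where 1 cell held 176139 CD24 tags, and CD172A in C7 was -0.0548. The RNA and tag correlation for CD8A in WT C4 was 0.52 by Pearson and 0.54 with tag shares. Shares of cells with a UMI changed in 34 of 36 cases without thinning and in 24 of 36 at 2000 UMIs, and the leading gene in 5 of 6 likeness searches changed with Spearman rho. Other than where a value above shows it, the cause was not tested. Cell number limits Batf3-/- C4 and C12, with 31 cells each.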
